A study of Mus musculus with 2 samples.

Results

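The transcripts described here are stretches of nascent RNA that were called in macrophages after 1 hr of interleukin-4 (IL-4) and had no counterpart in the untreated cells. They were chosen by a rule on the measured values: an IL-4 transcript with a score of 0.5 or more that overlapped no control transcript by 1 bp on the same chromosome and strand. There were 697 of them among the 7579 IL-4 transcripts at that score, which is 9.2% (95% Wilson interval 8.57 to 9.87), and among 51365 IL-4 transcripts in all. The control library held 43122 transcripts. The reverse rule, control transcripts at the same score without an IL-4 counterpart, picked 1445 of 11140 (13.0%).

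The cells were wild-type (Wt) mouse bone marrow-derived macrophages (BMDMs) from animals aged 8 to 12 weeks, grown for 6 days in the supernatant of L929 cells, fibroblasts that supply the growth factor M-CSF. The control group received no cytokine and the other group received IL-4 at 20 ng/ml for 1 hr. The assay was GRO-seq (global run-on sequencing): in isolated nuclei, polymerases already on a gene elongate their RNA with a labelled nucleotide, and this RNA is captured and sequenced. Duplicate run-on reactions were pooled before the library was made, so there was 1 library per condition, no replicate error and no test of any difference below.

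The only measurement was a score per called transcript, printed to 1 decimal, so each score is known to within 0.05. The sequencing depth is unknown and the scaling of the score is not given in the sources used here. Scores ran lower in the IL-4 library: 14.8% of its transcripts reached 0.5, against 25.8% in the control, and the median top score over 3434 genes was 0.7 after IL-4 and 0.9 in control. Intervals cover the sampling of transcripts within these libraries only. Those of transcript shares treat each transcript as independent, although many are stretches of the same gene, so they can be too narrow. A library of bulk cells cannot tell fewer transcribing cells from less RNA per cell. All 10 macrophage markers, among them Adgre1, Csf1r and Spi1, held called transcripts in both libraries, and the T cell, B cell, erythroid and fibroblast markers held none in either. Of the 5 neutrophil markers, S100a8 reached a top score of 0.3 after IL-4 and 0.5 in control, S100a9 was called only after IL-4 (0.2), Mpo only in control (0.6), and Elane and Ly6g not at all.

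IL-4 binds a receptor that contains the IL-4 receptor alpha chain, and Janus kinases attached to it phosphorylate the transcription factor STAT6, which enters the nucleus and binds palindromic TTC and GAA letters with a short spacer between them. The genes it turns on in macrophages include feedback inhibitors of the same kinases, lectin receptors, and enzymes of arginine and lipid metabolism. Because GRO-seq reads polymerases wherever they are, a gene that is newly transcribed appears as a series of called stretches that run from its start through its introns.

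Sequences of 5 promoters are shown because these genes carry the IL-4-only transcripts that the results below turn on, and because 3 of them hold the palindrome with 4 free bases. Each run is the 250 bases before the start in RefSeq on GRCm38.p6, on the gene's strand and 5′ to 3′, and capitals mark the letters TTCNNNNGAA where they occur. Lair1 (chr7:4063205-4063454, minus strand) holds the motif 81 bases before the start, Tfec (chr6:16898442-16898691, minus strand) 200 bases before it, and Tbxas1 (chr6:38918736-38918985, plus strand) 121 bases before it. Socs1 (chr16:10785537-10785786, minus strand) and Mrc1 (chr2:14229164-14229413, plus strand) do not hold these letters in the window.
Lair1: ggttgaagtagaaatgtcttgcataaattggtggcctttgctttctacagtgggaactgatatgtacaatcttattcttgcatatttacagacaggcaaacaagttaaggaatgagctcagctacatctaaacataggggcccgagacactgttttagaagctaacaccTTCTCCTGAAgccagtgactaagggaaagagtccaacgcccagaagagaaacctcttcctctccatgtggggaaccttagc
Tfec: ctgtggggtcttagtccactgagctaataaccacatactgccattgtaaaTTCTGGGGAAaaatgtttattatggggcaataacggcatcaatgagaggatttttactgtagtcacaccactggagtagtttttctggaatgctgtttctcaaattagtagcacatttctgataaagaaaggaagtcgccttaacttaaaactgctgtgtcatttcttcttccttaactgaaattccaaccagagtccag
Tbxas1: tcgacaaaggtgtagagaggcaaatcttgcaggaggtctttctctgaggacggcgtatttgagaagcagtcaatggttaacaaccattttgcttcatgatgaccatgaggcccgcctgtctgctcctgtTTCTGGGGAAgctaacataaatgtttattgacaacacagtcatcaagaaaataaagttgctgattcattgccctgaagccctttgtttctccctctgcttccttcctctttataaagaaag
Socs1: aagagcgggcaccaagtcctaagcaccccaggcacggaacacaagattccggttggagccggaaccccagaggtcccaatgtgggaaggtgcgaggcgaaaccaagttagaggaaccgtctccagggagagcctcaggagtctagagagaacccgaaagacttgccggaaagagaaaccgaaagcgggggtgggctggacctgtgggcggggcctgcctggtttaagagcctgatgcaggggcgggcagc
Mrc1: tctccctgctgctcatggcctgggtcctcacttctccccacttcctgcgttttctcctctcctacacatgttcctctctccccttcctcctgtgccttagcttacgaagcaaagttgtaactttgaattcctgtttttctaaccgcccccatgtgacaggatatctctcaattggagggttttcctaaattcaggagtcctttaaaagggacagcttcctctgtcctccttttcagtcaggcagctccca

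The hairpins of 3 annotated microRNAs overlapped IL-4-only transcripts, and their mature sequences from RefSeq are shown with the seed, bases 2 to 8, in capitals. Mir511 is encoded in Mrc1, Mir6928 in Atp6v0a1 and Mir342 in Evl, and the seeds differed between all the mature sequences shown.
mmu-miR-511-3p: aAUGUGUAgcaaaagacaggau
mmu-miR-6928-5p: aGGGGAUUugcauggacugcacu
mmu-miR-6928-3p: aAGCUGUUccuguacucuccag
mmu-miR-342-5p: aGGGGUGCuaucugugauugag
mmu-miR-342-3p: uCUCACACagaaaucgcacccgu

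Part of the IL-4-only transcripts gathered in a small set of genes, while most genes that held any held exactly 1. Of the 3434 annotated genes with an IL-4 transcript of score 0.5 or more on their strand, 387 (11.3%) held at least 1 IL-4-only transcript, 297 of them exactly 1 and 44 of them 2. The other 46 genes (1.34% of 3434) held 3 or more and took up 286 of the 697 transcripts, and the 10 genes with the most took up 143. For comparison, 711 genes had 3 or more IL-4 transcripts at this score of any kind. The share of all IL-4 transcripts at this score that lay in those genes was not computed. Genes with IL-4-only transcripts were long: the median length was 58697 bp for the 387 genes and 138049.5 bp for the 46, against 30151.5 bp for the 3434.

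Mrc1 led the list. It encodes the mannose receptor CD206, an endocytic lectin that is a standard marker of alternatively activated macrophages, and lies at chr2:14229392-14332057 on the plus strand. It held 32 IL-4-only transcripts, with scores from 0.5 to 1.5 (median 0.75) and lengths from 232 to 1247 bp. Of these, 26 were annotated to introns, 4 to exons, 1 to the 3′ UTR and 1 to a TTS, and they stretched from 2.30 to 102.27 kb of the 102.67 kb gene. In all, 97 IL-4 transcripts covered 51.8% of the gene and 21 control transcripts covered 4.67%. The highest single score in the gene was 13.1 after IL-4 and 2.7 in control, both at 6.68 kb. The IL-4-only stretches lay between positions that were also called in the control as far as the last control call, which began at 95.83 kb, and 2 of them, at 101.43 and 102.27 kb, lay beyond it.

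The largest run of neighbours was also in Mrc1. When transcripts on the same strand with gaps of at most 5 kb were joined, 15 IL-4-only transcripts formed a cluster of 29.68 kb at chr2:14231694-14261368, with scores from 0.5 to 1.5. A further 7 formed a cluster of 8.64 kb near the gene's end. The downstream edge of the larger cluster was the transcript at chr2:14260970-14261368, score 0.6, which contains the hairpin of Mir511 at chr2:14261003-14261081, and the nearest control transcript on the strand was 2319 bp from the hairpin. A run-on signal over the hairpin cannot be told apart from transcription of the intron of Mrc1 that holds it.

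**Figure D1:**
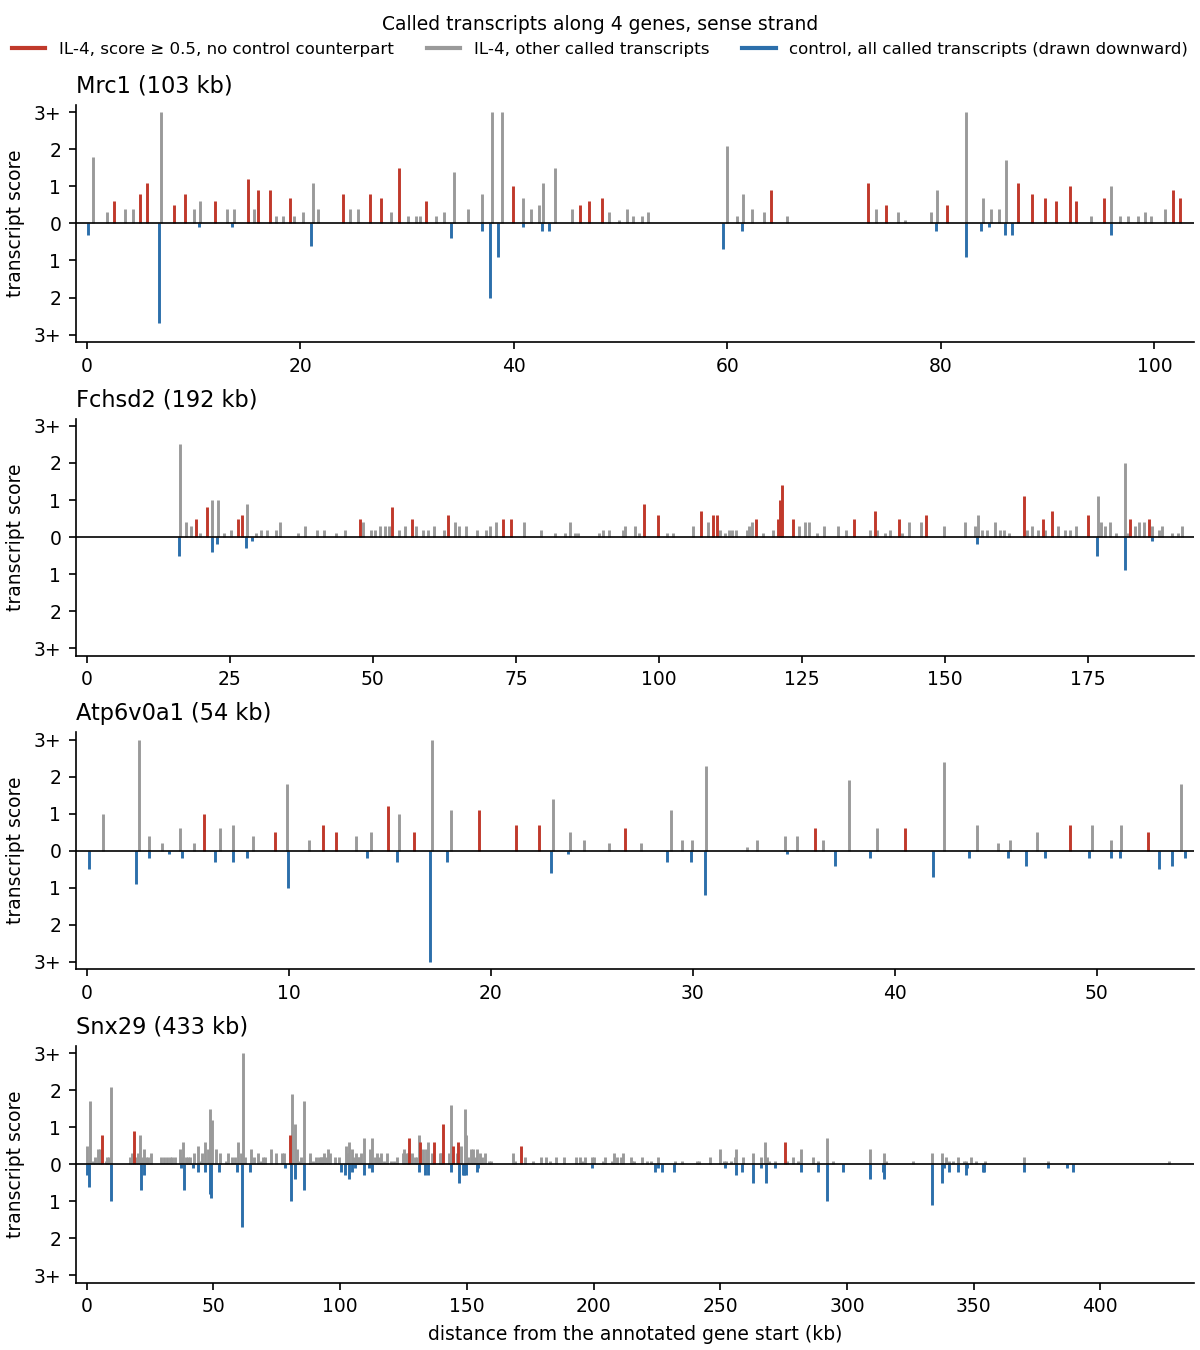
Called transcripts along Mrc1, Fchsd2, Atp6v0a1 and Snx29 on the sense strand, by distance from the annotated gene start (kb) and score, each line standing at the middle of a transcript, with control drawn downward and scores above 3 drawn at 3. The red lines, IL-4 transcripts of score 0.5 or more without a control counterpart, lie between 2.30 and 102.27 kb in Mrc1, between 18.83 and 185.38 kb in Fchsd2 and between 5.95 and 275.5 kb in Snx29.

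Fchsd2, whose product has F-BAR and SH3 domains and works in actin assembly at sites of endocytosis, held 30 IL-4-only transcripts (chr7:101092863-101284405, plus strand). All 30 were intronic, with scores from 0.5 to 1.4, and they spanned 166.55 kb, from 18.83 to 185.38 kb of the annotated gene. Control transcripts were few: 9 calls covered 0.918% of the gene with a top score of 0.9, whereas 146 IL-4 transcripts covered 32.9% with a top score of 2.5. The RefSeq start of the gene is 15.91 kb inside the annotated gene, and the control signal at 15.89 kb lay at that start.

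Atp6v0a1 encodes a membrane subunit of the vacuolar proton pump that acidifies endosomes and lysosomes (chr11:101009452-101063719, plus strand). It held 14 IL-4-only transcripts, 13 of them intronic, with scores from 0.5 to 1.2. Its longest were 1921 bp and 1612 bp, among the 5 longest of all 697. This gene was already transcribed along its length in the control, with 32 transcripts that covered 14.2% of it and a top score of 3.1; after IL-4, 55 transcripts covered 71.9% and the top score was 11.4. A run of 10 IL-4-only transcripts covered 6873 bp within 21.17 kb, and included the transcript of score 0.7 that covers 48 of the 70 bases of the Mir6928 hairpin.

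Dab2, a clathrin adaptor that brings cargo into endocytic vesicles, held 11 IL-4-only transcripts with scores from 0.5 to 1.4 (chr15:6299788-6440712, plus strand). They began 91.91 kb from the annotated start and 4.95 kb from a second RefSeq start 86.96 kb into the gene, and no called transcript of either library lay before that internal start. Coverage was 21.2% after IL-4 and 3.69% in control. Rnf19b, a RING-type ubiquitin ligase, held 8 (chr4:129058271-129085886, plus strand). The last control call in Rnf19b began at 13.24 kb of the 27.62 kb gene, and 6 of the 8 lay beyond it, between 16.94 and 25.08 kb. Its top score was 7.0 after IL-4 and 1.7 in control.

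Among the others of the first 10 were Fmnl2, Dock10 and Lair1. Fmnl2, a formin that extends actin filaments, held 9 IL-4-only transcripts with scores from 0.5 to 1.4, between 10.76 and 82.23 kb of a 275.94 kb gene, and had 4 control transcripts with a top score of 0.5. The last IL-4 transcript of Fmnl2 began at 139.52 kb, 50.6% of its length, and the last control transcript at 218.86 kb. Dock10 held 9 with scores from 0.5 to 0.7, and 138 IL-4 transcripts in all against 10 in control. Lair1, an inhibitory receptor for collagen, held 9 with scores from 0.5 to 0.8, and its top score was 1.5 after IL-4 and 0.5 in control.

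Snx29, a member of the sorting nexin family, held 11 IL-4-only transcripts with scores from 0.5 to 1.1, beside 144 weaker IL-4-only transcripts that missed the score of 0.5. The long non-coding Mir99ahg, the host gene of a microRNA cluster, held 10, all intronic, between 108.05 and 289.35 kb, and the highest of them scored 2.0. Both genes had many control transcripts, 70 in Snx29 and 44 in Mir99ahg, so that their IL-4-only transcripts lay in gaps between control calls rather than in untranscribed genes.

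**Figure D2:**
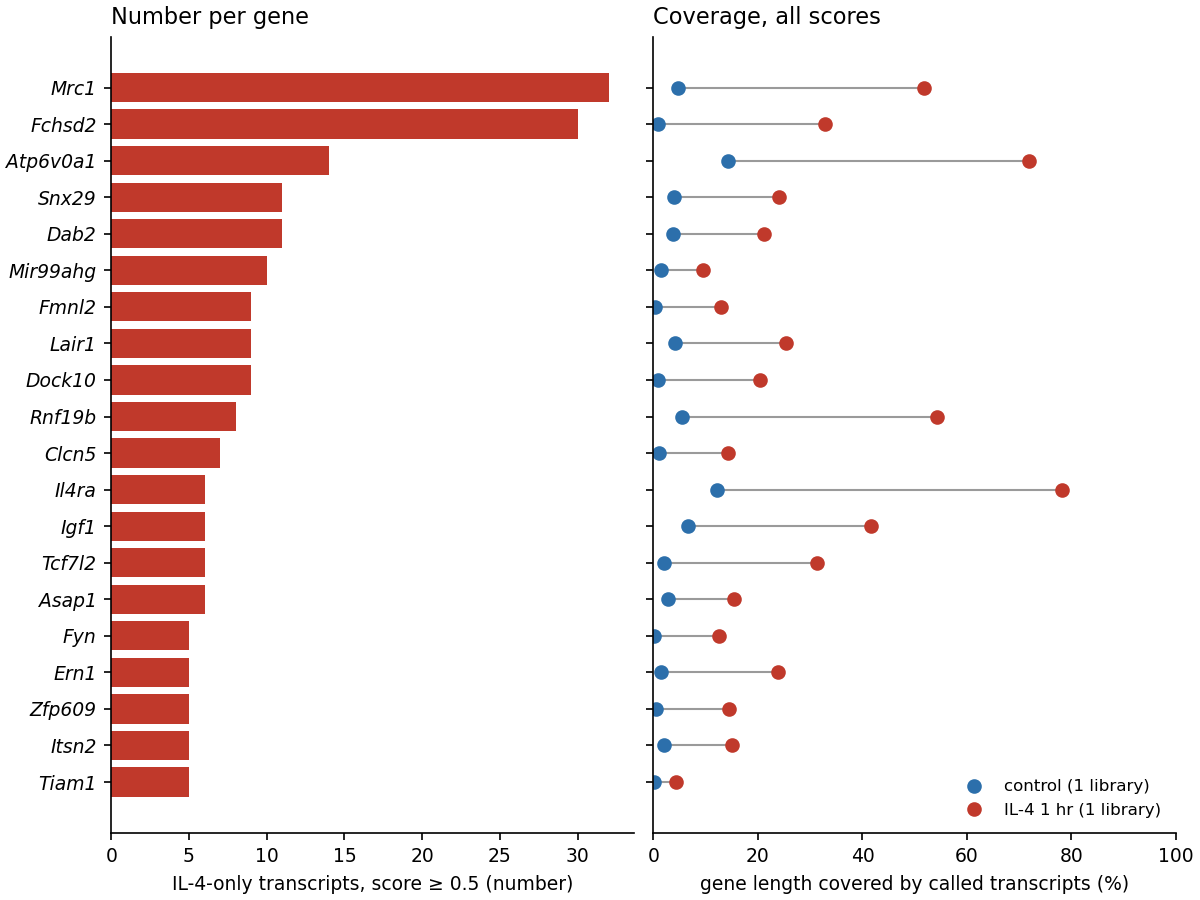
The 20 genes with the most IL-4-only transcripts of score 0.5 or more: left, their number per gene; right, the share of the gene's length (%) covered by called transcripts of any score in the control (blue) and IL-4 (red) libraries, 1 library each. Coverage was higher after IL-4 in each gene shown, from 78.2% against 12.2% in Il4ra to 4.28% against 0.0760% in Tiam1. In Mrc1, the first gene, it was 51.8% against 4.67%.

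The genes at ranks 11 to 20 held 5 to 7 IL-4-only transcripts each: Clcn5, Il4ra, Igf1, Tcf7l2, Asap1, Fyn, Ern1, Zfp609, Itsn2 and Tiam1; those without a further sentence below are named here after their values were seen, to complete the plot of coverage by gene. Coverage by called transcripts was higher after IL-4 in all 46 genes with 3 or more IL-4-only transcripts, and the top score was higher in 44 of them and lower in 2. Over all 3434 genes, 76.7% were covered more after IL-4 and 34.8% had a higher top score, and since the 46 genes were selected on these calls the difference between the 2 groups of genes is a description. The median of the 46 was a coverage of 20.4% after IL-4 and 2.39% in control, and of all 3434 genes 6.69% and 3.64%.

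Most genes that were rich in IL-4-only transcripts nevertheless had control signal at their start. A control transcript lay within the 1 kb after a RefSeq start in 30 of the 39 genes with 3 or more IL-4-only transcripts that had a RefSeq start (76.9%, 95% Wilson interval 61.7 to 87.4). The share was 194 of 285 genes with at least 1 (68.1%) and 2089 of 2482 genes with any IL-4 transcript of score 0.5 or more (84.2%). In the IL-4 library the same windows held a transcript in 94.9%, 88.8% and 89.8% of these genes. Among the first 10 genes, Atp6v0a1 and Lair1 had no control transcript in this window and the other 8 did. The RefSeq start of Atp6v0a1 lies 0.95 kb inside the annotated gene. A control transcript of score 0.5 lay before it, at 0.055 to 0.126 kb from the annotated start.

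Some genes of the IL-4 signalling pathway itself were among those with IL-4-only transcripts. Others, namely Stat6, Jak1, Jak2, Jak3, Tyk2, Irs2, Socs2 and Socs3, held none. Socs1, a feedback inhibitor that binds and blocks Janus kinases, lies at chr16:10782240-10785536 on the minus strand and had a single control transcript, of score 0.3, in its first 0.325 kb. After IL-4 it had 3 transcripts, of scores 2.0, 2.5 and 1.1, and the latter pair had no control counterpart. The transcript of score 2.5 covers 1263 bp at chr16:10783767-10785029 in the second exon and was the third highest of the 697 outside simple and low-complexity repeats. Together the 3 IL-4 transcripts covered 99.2% of the gene, against 8.74% in control. A further IL-4-only transcript of 1803 bp and score 1.2 began 119 bp past the gene's annotated end, at chr16:10780319-10782121, and joined the others in a cluster of 3.

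Il4ra, the alpha chain of the IL-4 receptor, held 6 IL-4-only transcripts with scores from 0.5 to 0.9 and lengths from 346 to 1228 bp (chr7:125552120-125579474, plus strand). All IL-4 transcripts together covered 78.2% of the gene, and 13 control transcripts covered 12.2%. Of the 6, 4 lay within 175 bp of a control transcript, so at this locus the IL-4-only stretches were the parts of a denser signal that fell between control calls. Cish, a STAT-inducible inhibitor of cytokine signalling, had no control transcript on its strand, and held 6 IL-4 transcripts that covered 69.3% of the gene, of which 1 reached the score (0.6, 763 bp). Pik3r1, the regulatory subunit of phosphoinositide 3-kinase, held 1 at 0.5 among 34 IL-4 and 18 control transcripts, and its top score was 4.3 after IL-4 and 4.9 in control.

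**Figure D3:**
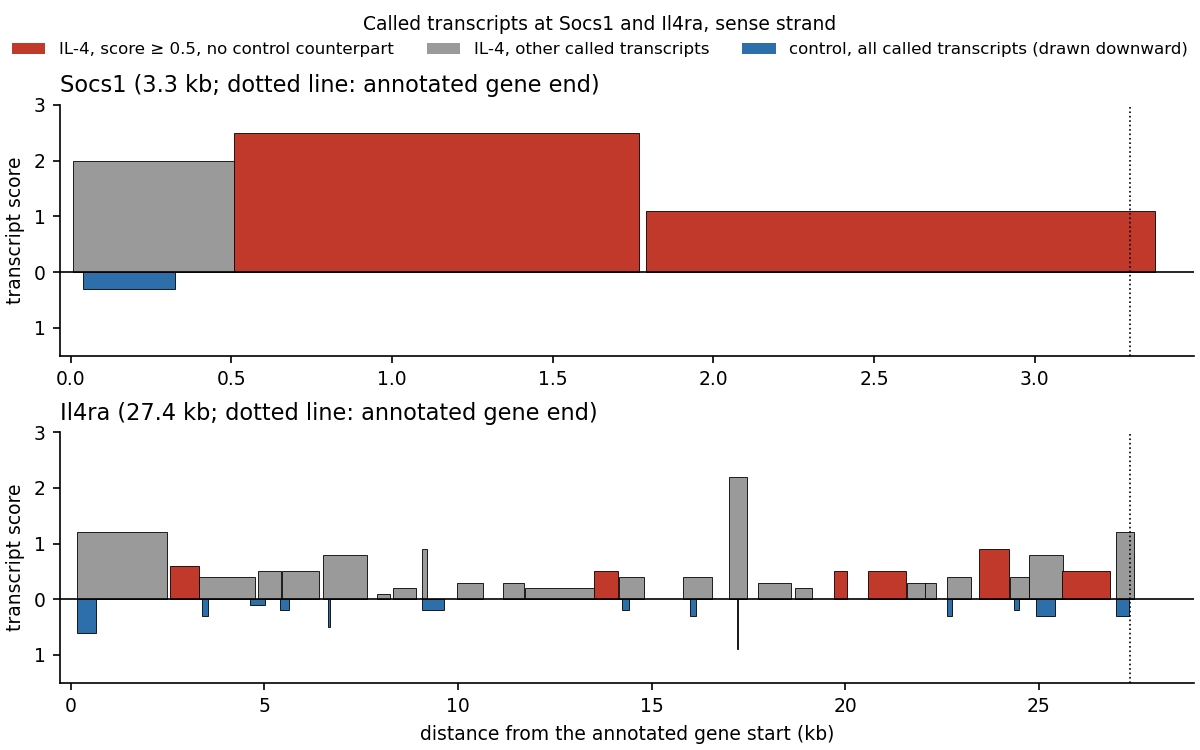
Called transcripts at Socs1 and Il4ra on the sense strand, drawn as boxes from their start to their end (kb from the annotated gene start) with the score as height, control downward. At Socs1 the control box ends at 0.325 kb and the red IL-4-only boxes, of scores 2.5 and 1.1, begin at 0.507 and 1.789 kb, with a grey IL-4 box of score 2.0 before them; at Il4ra the 6 red boxes lie between control boxes.

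Transcription factors formed the next group. Tfec, a basic helix-loop-helix factor of macrophages and a relative of Mitf, held 4 IL-4-only transcripts of scores 0.9, 0.7, 0.5 and 0.5 (chr6:16833373-16898441, minus strand). Its last control call began at 7.23 kb, and 3 of the 4 lay between 57.08 and 64.58 kb of the 65.07 kb gene, the last of them in the 3′ UTR. Nfil3, a basic leucine zipper repressor, had no control transcript, and its 11 IL-4 transcripts covered 38.6% of the gene and included a transcript of 1001 bp and score 0.7 that began 0.32 kb from the start. Bcl6, a zinc finger repressor, held 1 of score 0.6 at 0.61 kb, and it lay 78 bp from a control transcript. The top score of Bcl6 was 1.4 after IL-4 and 1.7 in control.

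Of the enzymes, carriers and secreted factors of the IL-4 list, 6 genes held IL-4-only transcripts, 1 or 2 each apart from Igf1 with 6. Slc7a2, a carrier of arginine and other cationic amino acids, had no control transcript and 5 IL-4 transcripts, of which 2 passed the score (1.6 and 0.7, lengths 56 and 104 bp), and all 5 together covered 1.02% of the gene. Gatm, which makes the precursor of creatine, held 1 of score 0.7 and had no control transcript. Ptgs1, the constitutive cyclooxygenase, held 1 of 706 bp and score 0.5 that began 0.05 kb from its start, with 16 IL-4 transcripts covering 32.6% of the gene and 1 control transcript covering 0.449%. Igf1, a growth factor made by macrophages, held 6 of scores 0.5 and 0.6, and its top score was 2.8 after IL-4 and 2.4 in control. Hbegf, a ligand of the epidermal growth factor receptor, and Ccl2, a chemokine that attracts monocytes, each held 1 of score 0.5 within 0.04 kb of the start, and neither had a control transcript.

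As a whole, the list of 62 genes of the early IL-4 response, which was written with earlier results of these data known, had 26 genes with an IL-4 transcript of score 0.5 or more. Of these, 14 (53.8%) held at least 1 IL-4-only transcript, beside 11.3% of all 3434 genes, and 6 of the 14 had no control transcript at all. By role, the 14 were 2 of 3 feedback inhibitors, 3 of 7 transcription factors, 3 of 4 enzymes and carriers, 2 of 6 lectins and receptors, 3 of 4 secreted factors and 1 of 2 signalling genes. Another 14 genes of the list, among them Egr2 and Myc with a top score of 0.4 each, had IL-4 transcripts below 0.5 and no control transcript, and so were left out by the score alone. A further 12 genes, Arg1 and Retnla among them, had no transcript in either library. Of 26 genes of an inflammatory list, 6 had an IL-4 transcript at the score, and none of the 6 held an IL-4-only transcript. The top score was lower after IL-4 than in control in 13 of the 26 genes of the inflammatory list and higher in 1, and it was lower in 13 and higher in 32 of the 62 genes of the IL-4 list. These totals include genes with no transcript in either library, 9 of the 26 and 12 of the 62. Over the 3434 genes with an IL-4 transcript at the score, the top score was lower in 55.5% and higher in 34.8%. That set holds no gene without a transcript, so its shares and those of the lists rest on unlike sets. Among the macrophage markers, 1 of 10 held an IL-4-only transcript, Itgam with a score of 0.5.

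Some genes had IL-4-only transcripts and no control transcript anywhere on their strand. There were 67 such genes, 43 of them protein-coding, and 85 of all 3434 genes (2.48%) had no control transcript. Of the 46 genes with 3 or more IL-4-only transcripts, St7 alone was without a control transcript, a gene picked out here after its values were seen; its 3 IL-4-only transcripts reached 1.2, and 34 weaker ones accompanied them. Fyn, a Src-family tyrosine kinase, came close: its 72 IL-4 transcripts began at 0.94 kb, while its single control transcript, of score 0.3, lay at 158.59 kb. The strongest of its 5 IL-4-only transcripts scored 1.7 (chr10:39396947-39397427, plus strand) and lay 130.02 kb from the nearest control call on the strand. The 67 also included 10 genes of small nucleolar RNAs, 4 of small nuclear RNAs and 3 of microRNAs, whose lengths are near that of a single called transcript.

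The highest scores among the 697 were of several kinds. Malat1, an abundant nuclear long non-coding RNA, held the highest, 7.8 over 417 bp at chr19:5798019-5798435, but a control transcript lay 89 bp away. In control, 6 transcripts covered 73.2% of Malat1, and its top score was 80.7, against 63.3 after IL-4. In Pla2g5, a secreted phospholipase, a 37 bp call of score 2.9 sat on a U1 small nuclear RNA repeat in an intron, and a 39 bp intergenic call of 2.3 on chromosome 6 sat on a 4.5S RNA repeat. In Ncl, the gene of nucleolin, the call of 1.7 over 235 bp lay at Snord82, a small nucleolar RNA hosted in its intron. The others of the 10 highest outside simple and low-complexity repeats were Socs1 (2.5), Mir99ahg (2.0), Fyn (1.7), Mrc1 (1.5), Fchsd2 (1.4) and Fmnl2 (1.4). The longest of all was 2209 bp, with a score of 0.9, in the first annotated intron of Tbxas1, the gene of thromboxane synthase, and began 1.73 kb after the RefSeq start whose promoter is shown above. Tbxas1 had 129 IL-4 and 51 control transcripts, which covered 28.6% and 6.14% of it. Its top score was lower after IL-4 (1.4) than in control (1.8).

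Most scores were close to the limit of the rule. The median score was 0.6, 318 of the 697 (45.6%) were printed as 0.5 and 79 (11.3%) were 1.0 or more. Just outside, 749 of 3723 IL-4 transcripts printed as 0.4 had no control counterpart. The share of transcripts without a counterpart fell as the score rose, in both libraries. In the IL-4 library it was 64.1% at scores of 0.1 to 0.2, 14.6% at 0.5, 5.19% at 1.0 to 1.9 and 0.909% at 2.0 and above. In the control library the corresponding shares were 55.3%, 20.5%, 4.82% and 0.780%.

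The IL-4-only transcripts were of moderate length, with a median of 239 bp and a range from 36 to 2209 bp. The median of all 7579 IL-4 transcripts at the score was 295 bp, and that of the 1445 control-only transcripts was 89 bp. Under 100 bp lay 26.4% of the IL-4-only, 14.2% of all IL-4 and 56.6% of the control-only transcripts, whereas 22.5%, 24.5% and 2.63% were 500 bp or longer. The control-only transcripts were thus shorter than the IL-4-only transcripts, which were themselves shorter at the median than all IL-4 transcripts at the score. Lengths of all control transcripts at the score were not summarised. A difference in length between the whole libraries therefore cannot be told apart from a difference between the unmatched lists.

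Short calls and long calls also differed in repeat annotation. Of the 184 IL-4-only transcripts under 100 bp, 72 (39.1%, 95% Wilson interval 32.4 to 46.3) were annotated as simple repeat, low complexity or small-RNA repeat, against 31 of 356 from 100 to under 500 bp and 7 of 157 (4.46%, 2.18 to 8.92) at 500 bp or more. Transfer RNA repeats accounted for 9 of the 697, out of 16 among all IL-4 transcripts at the score. The largest repeat classes were SINE with 87 (12.5%) and simple repeats with 75 (10.8%), beside 10.5% and 11.8% of all IL-4 transcripts at the score. Low-complexity sequence held 19 (2.73%), beside 3.98%. No repeat was named for 425 (61.0%), beside 65.8% of all IL-4 transcripts at the score. The repeat share of short calls over all IL-4 transcripts at the score is not given here. The part of read mapping in the calls at repeats was not tested.

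**Figure D4:**
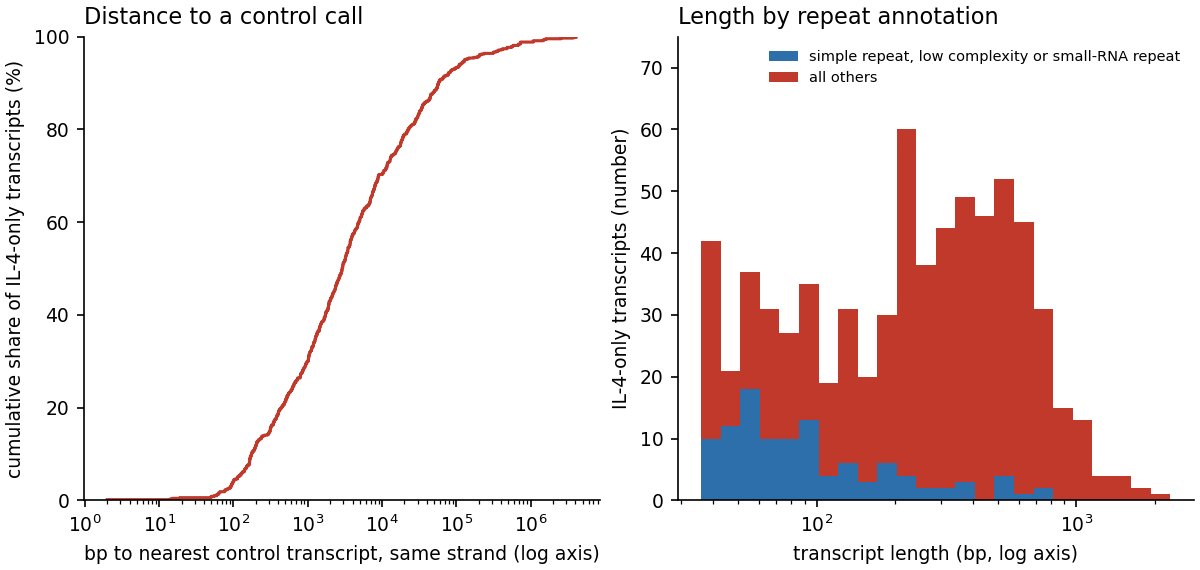
Left, cumulative share (%) of the 697 IL-4-only transcripts by distance (bp, log axis) to the nearest control transcript on the same strand; right, number of them by length (bp, log axis), stacked by repeat annotation. The median distance was 2903 bp, and the blue repeat classes made up 72 of the 184 transcripts under 100 bp.

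Many IL-4-only transcripts lay near a control call. The nearest control transcript on the strand was 2903 bp away at the median, within 100 bp for 29, within 1 kb for 209 (29.99%) and within 10 kb for 490 (70.3%). Only 4 of the 697 overlapped a control transcript on the other strand. Of the 697, 640 overlapped a gene on their strand. Along these genes, the 640 began a median of 29.15 kb from the gene start and at 38.1% of the gene's length. The same distances for all IL-4 transcripts at the score are not given here.

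The annotation classes of the deposited files also placed most of them in gene bodies. Introns held 534 of the 697 (76.6%, 95% Wilson interval 73.3 to 79.6), beside 68.3% (67.3 to 69.4) of all IL-4 transcripts at the score. Promoters (promoter-TSS) held 34 (4.88%, 3.51 to 6.74) beside 9.76%, and 5′ UTRs held 5 (0.717%) beside 2.69%. Intergenic sequence held 52 (7.46%, 5.73 to 9.65) beside 5.75%. Exons held 28, 3′ UTRs 22, transcription termination sites (TTS) 19 and non-coding genes 2, and 1 had no class. Of the intronic transcripts, 35.8% were in the first intron, beside 41.4% of all intronic IL-4 transcripts at the score. Control-only transcripts were also mostly intronic (80.2%), with 2.21% at promoters.

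**Figure D5:**
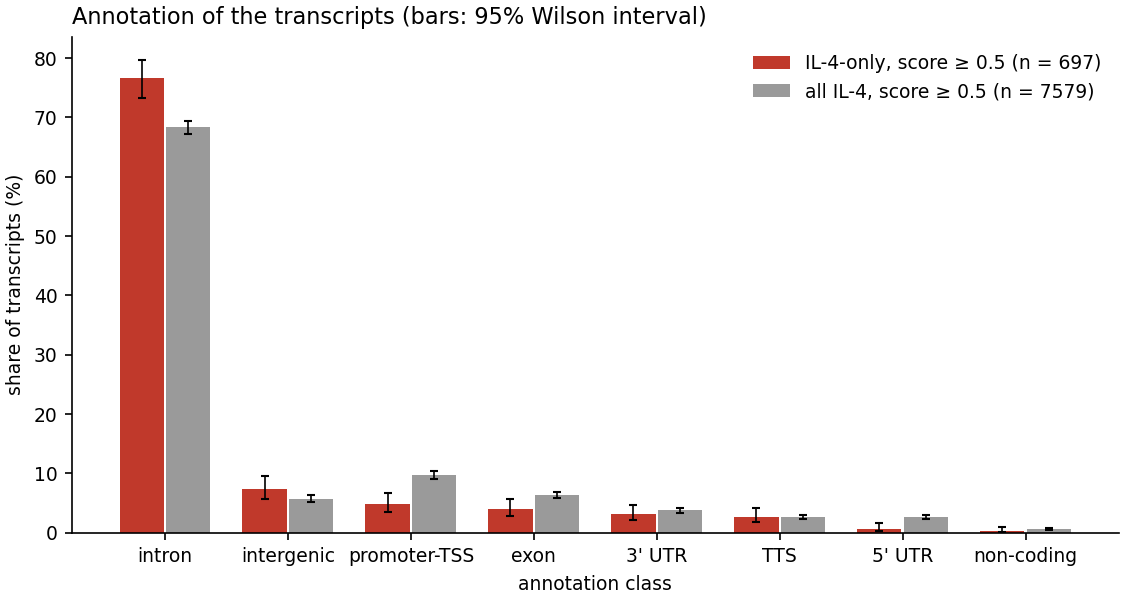
Share (%) of transcripts in each annotation class for the 697 IL-4-only transcripts (red) and all 7579 IL-4 transcripts of score 0.5 or more (grey), with 95% Wilson intervals. Introns take 76.6% against 68.3% and promoters 4.88% against 9.76%.

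Outside genes, 57 of the 697 overlapped no annotated gene on their strand. Of these, 21 lay within 10 kb past the end of a gene on the strand, as the transcript behind Socs1 did, and 12 lay antisense to a gene. Divergent pairs, in which an opposite-strand IL-4 transcript starts within 500 bp, were seen for 41 of the 697 (5.88%, 4.37 to 7.88) and for 12.9% of all IL-4 transcripts at the score. Such pairs are typical of promoters and enhancers, and among promoter transcripts they made up 18 of 34 IL-4-only and 58.4% of all. Among intergenic transcripts they made up 5 of 52 IL-4-only and 8.49% of all.

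Neighbouring IL-4-only transcripts formed 21 clusters of 3 or more when gaps of up to 5 kb were joined. In clusters of at least 2 lay 168 of the 697 (24.1%, 95% Wilson interval 21.1 to 27.4), beside 40.9% of all IL-4 transcripts at the score and 11.6% of the control-only transcripts. Clusters of at least 3 took in 104 (14.9%), beside 24.5% of all IL-4 transcripts at the score and 3.74% of the control-only. The 3 sets differ in size, and a larger set places more neighbours within 5 kb, so these shares are not directly comparable. Of control-only transcripts, 83 genes held 3 or more, and the highest number in a gene was 19, against 32 in Mrc1. After the cluster of 15 in Mrc1, the largest were in Atp6v0a1 with 10 transcripts, Dab2 and the end of Mrc1 with 7 each, and Snx29 and Rnf19b with 6 each.

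Promoter letters were compared between these genes and all promoters. The motif TTCNNNNGAA is its own reverse complement, so both strands were searched at once, and so is TTCNNNGAA, whose matches were counted separately and may overlap those of the longer motif. TTCNNNNGAA lay in the 250 bases before a RefSeq start in 1826 of 27025 genes (6.76%), in 5.68% of genes with an IL-4 transcript of score 0.5 or more, and in 23 of 285 genes with an IL-4-only transcript (8.07%, 95% Wilson interval 5.44 to 11.8). Of 39 genes with 3 or more it lay in 8 (20.5%, 10.8 to 35.5): Lair1, Tbxas1 and Tfec, shown above, and Dennd1a, Tsc22d1, Ly86, St7 and Nf2, which are named after their values were seen. Of the first 10 genes, Lair1 alone held it, with 9 IL-4-only transcripts. The other genes named here held 3 or 4 IL-4-only transcripts each, so the share did not rise steadily with their number. TTCNNNGAA lay in 8.13% of all genes, 7.02% of genes with an IL-4-only transcript and 5 of the 39. Tsc22d1, St7 and Nf2 have more than 1 RefSeq start, and the shares were not adjusted for the number of windows per gene. A match of letters is a description of the window and not a binding site.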

How the data were processed

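Nascent RNA of mouse macrophages was measured by GRO-seq in 2 libraries, control and IL-4, grouped by the treatment label. The authors aligned reads to mm10, called transcripts in each library with HOMER and annotated them; the submitters' processing notes list BWA 0.7.10, SAMtools 0.1.19 and HOMER 4.2. The deposited value per transcript is a score, for which a scaling is not given in the sources used here. All transcripts were kept. The members and the gene lists were chosen with earlier results of these data known.

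Same-strand overlaps of 1 bp or more were computed in Python 3.11.15 with numpy 2.4.6, pandas 2.3.3 and scipy 1.17.1, drawn with matplotlib 3.10.9, and the overlap functions were tested on simulated data. Genes, strands and exons came from GENCODE M21 on the same build, and a transcript counted for each gene it overlapped on the strand; without counts, exons shared by overlapping genes could not be split. Scores were compared as printed. Shares carry 95% Wilson intervals. No test was run, since there was 1 library per condition. Genes were named by rule: the 10 with the most members (ties by summed score times length), the 10 highest members outside simple and low-complexity repeats and the mitochondrial genome, the 5 longest, and every gene of the IL-4 list with a member. Promoter and microRNA sequences are RefSeq's on GRCm38.p6, and printed promoters held at most 30 exonic bases. Alternatives changed the score limit, the overlap, the length, repeats, the gene assignment, the joining distance and the motif.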

Additional observations from a re-analysis of the deposited data

How the results depend on the processing

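The number of IL-4-only transcripts depended on where the limits were set. With a score limit of 0.4, 0.6 or 1 it was 1446, 379 and 79, since a higher limit keeps fewer transcripts. These are 12.8%, 7.03% and 3.996% of the IL-4 transcripts at each limit, as the share without a counterpart also fell with rising score. If a control transcript had to cover 50% of the IL-4 transcript to count, the number was 2549 (33.6%); with transcripts of at least 150 bp it was 450 (7.78%); and with control calls within 1 kb counted as counterparts the share was 6.44%. Genes with at least 1 numbered 750 at a limit of 0.4, 58 at 1 and 217 at 150 bp or more. Genes with 3 or more numbered 94 at 0.4, 3 at 1 and 29 with control calls within 1 kb counted. Genes with 1 and no control transcript numbered 143 at 0.4, 12 at 1, and 43 when protein-coding alone. At a limit of 1, introns held 68.4%, promoters 2.53% and intergenic sequence 11.4%. Clusters held 14.8% with gaps of up to 2 kb and 32.4% with 10 kb. For these shares the cause was not tested. The other 22 values under an alternative stayed within limits that are not given here and that allowed sizeable falls. With control calls within 1 kb counted, the number of transcripts was 488 against 697. Genes with at least 1 then numbered 277 against 387.

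No paired analysis was possible because each condition has 1 library and the labels give no replicate numbers. The window that adds 50 bases after the start was chosen after seeing the data and gave the motif in 8.77% of genes with an IL-4-only transcript. Motif searches around the transcripts' own 5′ ends and in a window reaching 500 bases to each side were not run, as no genome sequence was used here. Depth is unknown, so a missing control call says only that no transcript was called there.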
